A study of Mus musculus with 2 samples.

Results

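The expression of 10 transcription factors of adipogenesis (Cebpb, Cebpd, Klf4, Klf5, Ebf1, Ebf2, Zfp423, Pparg, Cebpa and Klf15) was described in stromal cells of mouse perivascular adipose tissue, the fat that surrounds the aorta. The members were the rows of both count matrices that carry these symbols, 10 of 31053 genes, and all 10 were found in both. The study compared wild-type (WT) mice labelled young with WT mice labelled old, and holds 2 single-cell RNA-seq libraries, 1 for each age. Fat dissected from the aorta was digested with collagenase, strained and depleted of red blood cells, and droplet libraries reading the 3′ end of each transcript were made from the cells. The sources used here give neither the ages and sex of the mice nor how many were used. With 1 library per age, differences between ages have no replicate behind them and were not tested. Intervals are 95% intervals that cover counting error only, so age, mouse and library preparation cannot be told apart.

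Adipogenesis is driven by a cascade of transcription factors. C/EBPβ and C/EBPδ, with the Krüppel-like factors KLF4 and KLF5, act early after an adipogenic stimulus. The early B-cell factors EBF1 and EBF2 and the zinc-finger protein ZFP423 mark or commit progenitors before that step. PPARγ and C/EBPα then induce each other and the genes of the mature fat cell, and KLF15 acts late beside them. In fat around vessels, stromal progenitors and mature adipocytes lie next to smooth muscle, so the same genes can be read in several mesenchymal states. The 10 genes were therefore grouped as 4 early factors (Cebpb, Cebpd, Klf4, Klf5), 3 determination factors (Ebf1, Ebf2, Zfp423) and 3 late factors (Pparg, Cebpa, Klf15).

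The upstream sequences of 4 factors are shown because these genes carried the age differences or the difference between adipocytes and stroma described below, and because some of the factors bind upstream of others. They are the 250 bases before an annotated start, taken from RefSeq on GRCm38.p6, each written 5′ to 3′ on the strand of its gene. Capitals mark the C/EBP motif TTNNGCAA in Pparg and the partial cyclic-AMP response element TGACG in Cebpb and Klf4, on either strand. The stretches lie at chr6:115421816-115422065 (plus strand) and chr6:115362099-115362348 (plus) for Pparg, chr7:35119043-35119292 (plus) for Cebpa, chr2:167688665-167688914 (plus) for Cebpb and chr4:55532476-55532725 (minus) for Klf4.
Pparg, internal start: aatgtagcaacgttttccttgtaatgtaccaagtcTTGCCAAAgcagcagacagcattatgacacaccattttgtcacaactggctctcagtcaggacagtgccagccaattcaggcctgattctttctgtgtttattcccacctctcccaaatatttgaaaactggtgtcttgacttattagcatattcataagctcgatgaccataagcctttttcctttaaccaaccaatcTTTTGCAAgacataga
Pparg, upstream start: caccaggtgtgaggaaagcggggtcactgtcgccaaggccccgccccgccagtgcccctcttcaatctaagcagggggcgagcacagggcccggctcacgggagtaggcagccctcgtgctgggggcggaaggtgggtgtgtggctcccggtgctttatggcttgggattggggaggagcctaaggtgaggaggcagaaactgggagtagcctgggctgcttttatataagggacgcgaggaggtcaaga
Cebpa: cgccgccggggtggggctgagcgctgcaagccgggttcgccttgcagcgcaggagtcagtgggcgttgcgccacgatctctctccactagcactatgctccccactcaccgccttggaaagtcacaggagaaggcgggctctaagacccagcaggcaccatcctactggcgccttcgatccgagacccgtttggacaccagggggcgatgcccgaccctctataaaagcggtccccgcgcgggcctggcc
Cebpb: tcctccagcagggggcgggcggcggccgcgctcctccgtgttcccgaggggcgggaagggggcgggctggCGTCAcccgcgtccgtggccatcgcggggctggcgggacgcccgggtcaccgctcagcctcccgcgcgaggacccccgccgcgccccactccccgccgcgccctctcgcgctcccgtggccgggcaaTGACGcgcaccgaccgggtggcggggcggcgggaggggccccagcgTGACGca
Klf4: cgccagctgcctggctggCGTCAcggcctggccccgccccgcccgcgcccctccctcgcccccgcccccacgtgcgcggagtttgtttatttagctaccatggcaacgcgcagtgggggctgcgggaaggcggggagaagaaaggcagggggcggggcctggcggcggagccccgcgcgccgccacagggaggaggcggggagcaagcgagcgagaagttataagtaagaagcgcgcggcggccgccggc
The internal Pparg start held 2 C/EBP matches, at positions -215 to -208 and -16 to -9 counted from the first transcribed base. The upstream Pparg start shown, a further Pparg start and the Cebpa start held 0, and 1 of the 2 Zfp423 starts, not shown, held 1. A C/EBP match was present in 9.56% of 32851 promoters of the same length. Cebpb held 3 TGACG matches and Klf4 held 1, against a match in 17.8% of promoters, and Klf15 held 2. These are letter matches and no binding was measured. RefSeq promoters were matched for 7 of the 10 genes, with 11 starts, and none was matched for Cebpd, Klf5 or Ebf2. Because only 3′ ends were read, the UMIs of Pparg cannot be assigned to one of its starts.

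The young library held 13104 cell barcodes with 130398999 unique molecular identifiers (UMIs, each marking 1 captured RNA molecule), and the old library 14636 barcodes with 147166475. After filters on genes, mitochondrial reads and likely doublets, 11453 young and 12207 old cells were kept, with median depths of 8913 and 9230 UMIs. The libraries share 275 barcodes, 2.10% of the young and 1.88% of the old ones. Cells were clustered without the 10 factors and named from marker genes. Mesenchymal clusters held 10838 young cells (94.6%) and 10404 old cells (85.2%), and a cluster led by Car3, Adipoq and Cfd, named adipocyte-like, held 6 young and 135 old cells. Of the 15 mesenchymal clusters, 14 took at least 99.5% of their cells from 1 library. Only cluster 7, led by S100a6 and Tpm2 and named contractile, had at least 50 cells from both. A mesenchymal cluster may therefore be a library as much as a cell state, and levels between ages were compared over whole classes and over cluster 7. Levels (CPM) are the UMIs of a gene scaled to a total of 1000000 UMIs in its class, and are compared between libraries or clusters for 1 gene, not between genes.

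Over all mesenchymal cells, 4 of the 10 factors (Cebpb, Klf4, Pparg, Cebpa) were higher in old than in young cells by 1.5-fold or more, and 1 of 10 (Klf5) was lower by that much. Among all 15164 genes with at least 20 UMIs, 19.8% (3005 genes) were that much higher and 12.4% (1878 genes) that much lower. The share of factors higher in the old library thus exceeded the background share on a base of only 10 genes, and the share lower was near it. Median-of-ratios scaling gave an all-gene split of 2344 higher and 2309 lower, moved the median of all genes from 0.13 to 0.0028 on the log2 scale, and added Klf15 to the lower factors. The median log2(old/young) of the 10 factors was 0.12, close to the median of all genes at 0.13, and -0.0058 with median-of-ratios scaling. By role, 2 of 4 early factors were higher and 1 lower (median 0.42), none of the 3 determination factors passed the limit in either direction (median 0.07), and 2 of 3 late factors were higher (median 0.85).

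**Figure D1:**
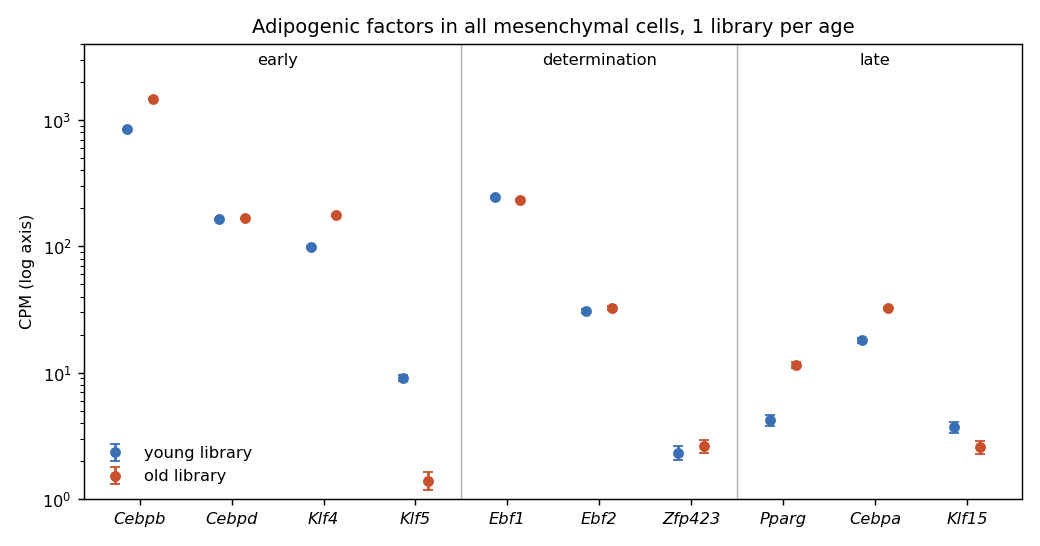
Level of each factor in all mesenchymal cells, in CPM on a log axis, for the young (blue) and the old (orange) library, with exact Poisson 95% intervals; vertical lines part the early, determination and late factors. Cebpb, Klf4, Pparg and Cebpa lie higher and Klf5 lies lower in the old library, while Cebpd and the determination factors nearly coincide.

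Among the early factors, Cebpb, which with Cebpd starts the cascade, was at 843 CPM in young and 1474 CPM in old mesenchymal cells (89926 and 161842 UMIs). The log2 difference was 0.81 (interval 0.79 to 0.82), or 1.75-fold. Cebpd was at 163 CPM in young and 167 CPM in old cells, a log2 difference of 0.03 (-0.0023 to 0.06). The 2 C/EBP genes of the early step therefore did not share their age difference. Klf4, a Krüppel-like factor that promotes Cebpb transcription early in adipogenesis, was at 98.1 CPM in young and 176 CPM in old cells (log2 0.85, 0.81 to 0.88). Whether this difference passed the limit depended on 1 old cluster: without cluster 18 it was 0.43, still higher in old cells but under the limit. Klf5, which promotes Pparg transcription during adipogenesis, was the only factor lower by the limit, at 9.07 CPM in young and 1.39 CPM in old cells (967 and 153 UMIs). Klf5 was 6.51-fold lower in the old library (log2 -2.70, -2.96 to -2.45). Immediate-early genes, which also respond to enzymatic dissociation, had a higher sum in old cells, the same direction as Cebpb and Klf4. Their 23 genes summed to 2116 CPM in young and 3471 CPM in old mesenchymal cells. Of the 23, 11 were higher and 1 was lower, beside 19.8% and 12.4% of all genes. The part of immediate-early genes in the Cebpb and Klf4 differences was not tested.

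The determination factors differed little between libraries. Ebf1, which promotes the adipocyte programme and is also a B-cell factor, was at 245 CPM in young and 233 CPM in old mesenchymal cells (log2 -0.07, -0.10 to -0.05). Ebf2, a factor of brown and beige fat precursors, was at 30.9 and 32.4 CPM (log2 0.07, -0.0013 to 0.14). Zfp423, which promotes preadipocyte commitment and holds cells in the white fat state, was at 2.33 and 2.62 CPM on 248 and 288 UMIs (log2 0.17, -0.08 to 0.42). Zfp423 passed the limit (log2 0.64) when young cluster 0, where it was high, was left out. Ebf1 and Ebf2 stayed under the limit without any 1 cluster, Ebf1 between -0.29 and 0.37 and Ebf2 between -0.19 and 0.45.

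Among the late factors, Pparg, the nuclear receptor required for fat cell formation, was at 4.19 CPM in young and 11.6 CPM in old mesenchymal cells (447 and 1269 UMIs). Pparg was 2.76-fold higher in the old library (log2 1.46, 1.31 to 1.62) and ranged from 1.19 to 1.80 when each cluster was left out in turn. Cebpa, its partner in late differentiation, was at 18.0 and 32.3 CPM (1916 and 3544 UMIs; log2 0.85, 0.76 to 0.93). The Cebpa difference depended on which clusters were present: it was 0.47 without old cluster 17, under the limit, and 1.63 without young cluster 0. Klf15, a late factor that also acts in glucose and amino acid metabolism, was at 3.70 and 2.58 CPM on 395 and 283 UMIs (log2 -0.52, -0.75 to -0.30). Klf15 crossed the limit on the lower side without clusters 1, 2, 4 or 17, where it lay between -0.74 and -0.60, and was -0.09 without young cluster 0. The 3 late factors thus did not move together.

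RNA of some other cell types was also higher among the old mesenchymal cells. Of the 10 blood endothelial markers 7 were higher and 2 lower, summing to 61.9 CPM in young and 100.5 CPM in old mesenchymal cells. Of the 8 macrophage markers with at least 20 UMIs 7 were higher and 0 lower, and the full list summed to 15.5 and 57.3 CPM. Mesothelial markers went the other way, with 1 of 8 higher and 6 lower. Among all genes 19.8% were higher and 12.4% lower. Old blood endothelial-like cells had Pparg too, at 13.7 and 27.8 CPM in their 2 clusters, and old macrophage-like cells had Cebpa at 48.2 CPM; the part of these cells' RNA was not tested. The 13 adipocyte markers summed to 7.53 CPM in young and 36.1 CPM in old mesenchymal cells, with none at 0 in either, and to 17195 CPM in the old adipocyte-like cells. Old mesenchymal cells held 4.33 Pparg UMIs for each UMI of Adipoq, the adipocyte hormone adiponectin, against 0.0812 in old adipocyte-like cells. For Cebpa these ratios were 12.1 and 0.298. In cells with no UMI of Adipoq, Plin1, Cidec, Car3 or Adig, the log2 difference was 1.49 for Pparg and 0.87 for Cebpa, against 1.46 and 0.85 with all cells. Cells without such a UMI can still hold free adipocyte RNA, and its part in the differences was not tested.

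The share of cells with a UMI was compared after every cell was thinned to 1000 UMIs, which left out 39 young and 19 old mesenchymal cells. Shares were higher in the old library, with intervals apart, for 5 factors: Cebpb, Klf4, Pparg, Cebpa and, by a small margin, Ebf1. The same count was not made over all genes, so this number has no background share beside it. Cebpb had a UMI in 54.3% (53.4 to 55.3) of young and 74.0% (73.2 to 74.9) of old mesenchymal cells, and without thinning in 10296 of 10838 and 10236 of 10404 cells. Klf4 had one in 8.29% (7.77 to 8.82) and 12.3% (11.7 to 12.96), unthinned 46.1% and 53.3%. Cebpd was at 15.03% and 15.04%, so neither level nor share separated the libraries. Klf5 had a UMI in 0.769% (0.613 to 0.952) of young and 0.173% (0.103 to 0.274) of old cells, unthinned 7.40% and 1.37%. Cebpa had one in 1.64% (1.41 to 1.90) and 3.67% (3.32 to 4.05), and Pparg in 0.546% (0.416 to 0.704) and 1.36% (1.14 to 1.60). Their unthinned shares were 13.6% and 23.8% for Cebpa and 3.89% and 10.2% for Pparg. Ebf1 had a UMI in 20.1% (19.3 to 20.9) and 21.7% (20.9 to 22.5) of cells although its CPM was slightly lower in the old library, so no order was read from its share.

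Free RNA in droplets can give UMIs in cells that do not express a gene, so the same shares were read in Schwann-like cells (155 young and 152 old, median depths 6746 and 5134.5 UMIs). There Pparg had a UMI in 0 of 155 young cells, which allows a share of up to 1.94% by 3 counts of the total and 2.35% by the exact upper bound, and in 0.658% (0.0167 to 3.61) of old cells. At this depth the Pparg share of mesenchymal cells could not be told from that of Schwann-like cells in either library. By level, old Pparg was at 4.93 CPM (1.34 to 12.6) on 4 UMIs in Schwann-like cells, an interval that includes the 11.6 CPM of mesenchymal cells. In old mesothelial-like cells it was at 1.005 CPM (0.0254 to 5.60) on 1 UMI, an interval below that level. Cebpa had a UMI in 0.645% (0.0163 to 3.54) of young and in 0 of 152 old Schwann-like cells, which allows up to 1.97% by 3 counts and 2.40% by the exact bound, and the 3.67% of old mesenchymal cells lies above both. Klf15 had 0 UMIs in Schwann-like cells of both libraries, but 5.02 CPM (1.63 to 11.7) in old mesothelial-like cells, a level not below that of mesenchymal cells.

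Within each library the factors were unevenly spread over the mesenchymal clusters. Ebf1, Ebf2, Cebpa, Pparg, Klf15 and Zfp423 were all high in young cluster 0, a fibroblastic cluster of 2909 cells with Lpl among its leading genes. Cluster 0 had Ebf1 at 455 CPM, Ebf2 at 53.8 CPM, Cebpa at 42.1 CPM (39.6 to 44.7), Pparg at 7.01 CPM (6.02 to 8.12) and Klf15 at 6.77 CPM. Summed adipocyte markers were also highest in cluster 0 among young mesenchymal clusters, at 12.0 CPM against 1.89 to 11.1 CPM in the others. Their part in its levels was not tested. Small young cluster 10 (52 cells) had Ebf1 at 544 CPM (442 to 663), an interval that includes the level of cluster 0. Young cluster 1, led by Nrn1 and Mef2c, was the reverse for Cebpa and Ebf1 (6.11 and 99.2 CPM) and had the highest young Cebpd level, 244 CPM. Over the 9 young clusters the median level was 9.64 CPM for Cebpa and 3.32 CPM for Pparg.

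In the old library several of these factors were high in cluster 17, a fibroblastic cluster of 1901 cells led by Kng2, Hp and Saa3. Cluster 17 had the highest old levels of Cebpa (83.2 CPM, 78.5 to 88.2), Pparg (25.4 CPM, 22.8 to 28.2), Ebf1 (384 CPM), Zfp423 (4.86 CPM) and Cebpb (1858 CPM). Ebf2 was not high in cluster 17 (28.5 CPM) and was highest in cluster 20, at 38.7 CPM, while Klf15 was at 5.08 CPM (3.97 to 6.41) in cluster 17 and 6.82 CPM (3.90 to 11.1) in cluster 21. The median over the 7 old clusters was 22.5 CPM for Cebpa and 9.94 CPM for Pparg. Summed adipocyte markers were also highest in cluster 17 among old mesenchymal clusters, at 57.5 CPM against 25.1 to 36.8 CPM in the other 6, and their part in its Pparg and Cebpa levels was not tested. Klf4 was concentrated in old cluster 18, led by Gm13889, Tppp3 and Atf3, at 525 CPM (512 to 538). The other 6 old clusters lay between 26.0 and 164 CPM of Klf4, and cluster 18 also had the highest summed immediate-early genes, 5917 CPM. Their part in its Klf4 level was not tested. Cluster 18 had less Cebpd (83.5 CPM) than any other old cluster except cluster 7 (36.0 CPM).

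Between the ages, the cluster levels of 2 of the higher factors barely overlapped as point values. Clusters of 1 library are not replicates, and how many of all genes separate in this way was not counted. Summed adipocyte markers did not overlap, at up to 12.0 CPM in young and from 25.1 to 57.5 CPM in old mesenchymal clusters. Their part in the levels below was not tested. Pparg lay above the highest young cluster (7.01 CPM) in 6 of 7 old clusters, all but cluster 21 (2.56 CPM). Of these, old cluster 7 was at 7.42 CPM on 14 UMIs, inside the interval of that young cluster (6.02 to 8.12). Small young cluster 10 had Pparg at 0 CPM with an upper bound of 20.5 CPM. Cebpb lay above the highest young cluster (1132 CPM) in 6 of 7, all but cluster 7 (293 CPM). Cebpa did so in 1 of 7 and Klf4 in 3 of 7. Klf5 was between 0 and 2.34 CPM in the old clusters and between 4.58 and 12.1 CPM in the young clusters other than cluster 7, so apart from cluster 7 the 2 libraries did not overlap. In cluster 7 Klf5 was at 1.14 CPM in young and 1.06 CPM in old cells, on 3 and 2 UMIs. The contractile cells of cluster 7 had the lowest level of Cebpb, Cebpd, Klf4 and Ebf1 of the mesenchymal clusters in each library. They were shallow, with a median of 4331 UMIs, against 8928 in all young and 9379 in all old mesenchymal cells. Young clusters 3 and 10 were shallower still, at 4230 and 3071 UMIs. The part of depth in the low levels of cluster 7 was not tested.

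**Figure D2:**
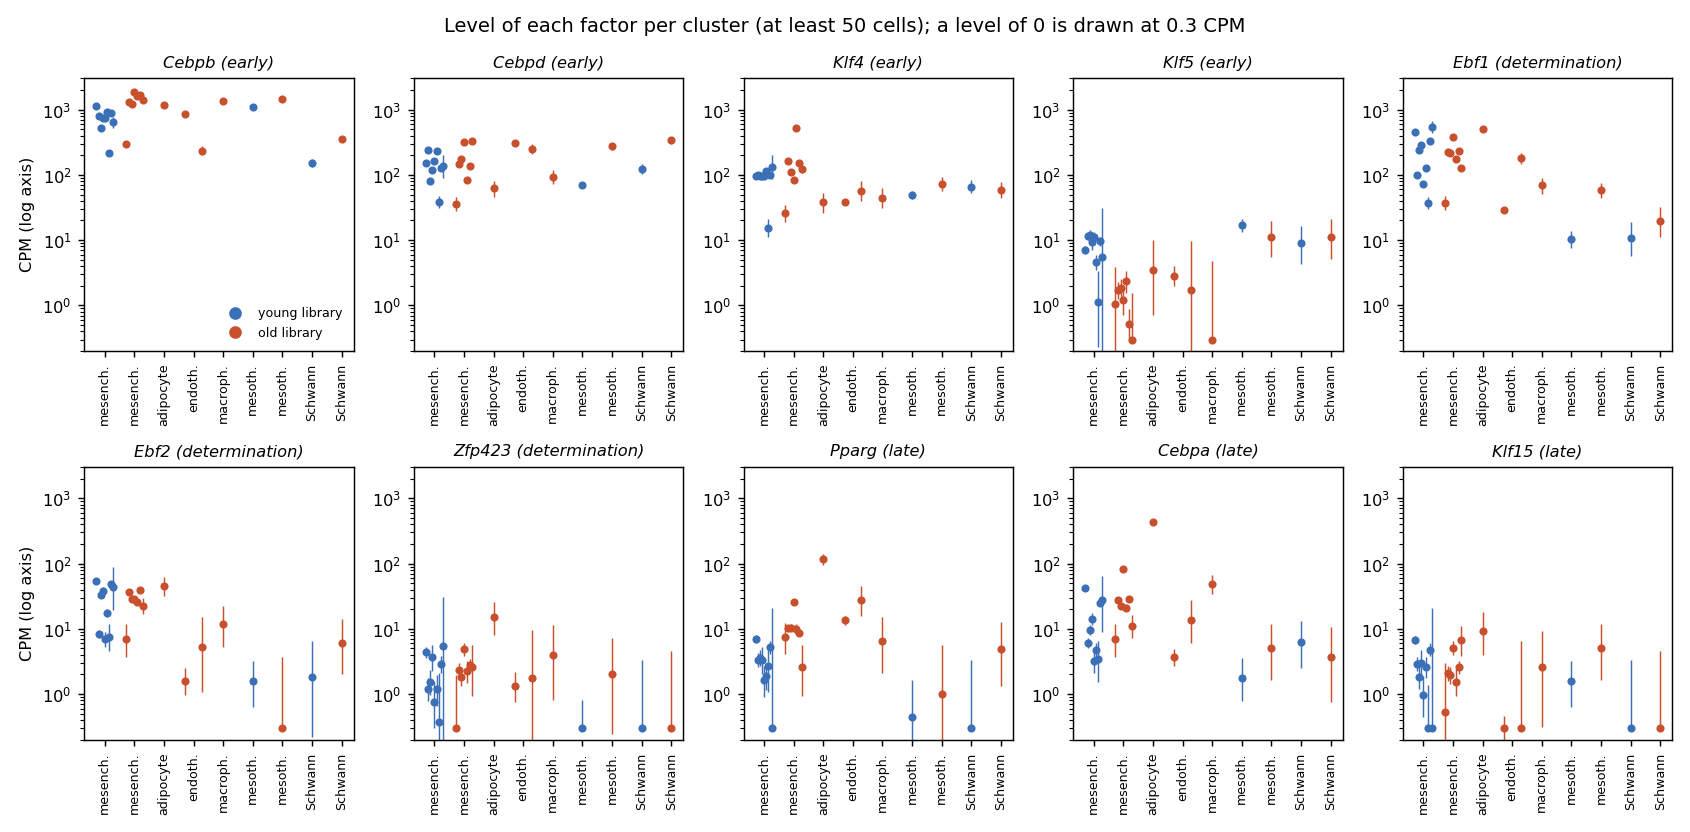
Level of each factor (CPM, log axis) in every cluster with at least 50 cells in a library, grouped by cell class and coloured by library (blue young, orange old), with exact Poisson 95% intervals; a level of 0 is drawn at 0.3 CPM. The adipocyte-like point stands above all others for Pparg and Cebpa, 1 old mesenchymal cluster stands out for Klf4 at 525 CPM, and Klf5 separates young from old mesenchymal clusters other than cluster 7.

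The comparison of adipocyte-like with mesenchymal cells was made in the old library, since 6 young adipocyte-like cells are too few (39 Cebpa, 8 Pparg and 71 Ebf1 UMIs). Late factors were higher in the 135 old adipocyte-like cells, and of the early factors Klf4 and Cebpd were lower by more than 1.5-fold. The share of all genes that differ by this much between these cells was not counted. Pparg was at 116 CPM (94.4 to 141) against 11.6 CPM, or 10.02-fold (log2 3.33, 3.02 to 3.62). Cebpa was at 426 CPM (383 to 471) against 32.3 CPM, or 13.2-fold. Klf15 was 3.56-fold higher on 8 UMIs (log2 1.83, 0.61 to 2.83). After thinning to 1000 UMIs, Cebpa had a UMI in 39.3% (31.0 to 48.0) and Pparg in 11.9% (6.93 to 18.5) of adipocyte-like cells. The determination factors were higher as well for Ebf1, at 509 against 233 CPM (2.19-fold), and for Zfp423, 5.69-fold on 13 UMIs. Ebf2 was at 44.8 CPM against 32.4 CPM (log2 0.47, -0.03 to 0.92), not separable at this depth. Klf4 was 4.66-fold lower in adipocyte-like cells (37.9 against 176 CPM) and Cebpd 2.69-fold lower (62.0 against 167 CPM). Cebpb differed little, at 1168 against 1474 CPM, and Klf5 had 3 UMIs. Adipocyte-like cells were shallower (median 5954 UMIs) than old mesenchymal cells (9379), and the levels are per UMI of each class.

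The age differences were then read within classes present in both libraries, which hold different clusters of each library (fibroblastic clusters 0, 1, 3, 6 and 10 in young, 17, 18, 20 and 21 in old). In the fibroblastic class (7257 young and 6093 old cells), the same 4 factors were higher and Klf5 was lower, against 22.5% of 14398 genes higher and 14.1% lower. The log2 differences there were 1.51 for Pparg (1.32 to 1.71), 1.08 for Klf4, 0.94 for Cebpa, 0.86 for Cebpb and -2.97 for Klf5 (-3.37 to -2.58). The Klf4 value includes old cluster 18, at 525 CPM, and the Cebpa value old cluster 17, at 83.2 CPM. Over all mesenchymal cells, Klf4 was under the limit without cluster 18 and Cebpa without cluster 17. Values without these clusters are not given for the fibroblastic class. In cycling cells (1971 young and 2034 old), the same 4 were higher, with Pparg at 1.38 and Cebpa at 0.69, and 2 were lower, Klf5 at -2.57 and Klf15 at -0.73 (-1.24 to -0.23). The background in cycling cells was 16.7% higher and 9.85% lower. The contractile class (1608 young and 383 old cells) had lower levels of the 4 early factors, Ebf1 and Ebf2 in old cells. However, it joined clusters 2 and 7 in the young library and held almost only cluster 7 in the old. Old cluster 16 (1894 old cells), led by Actg2, Gsta4, Ppp1r14a and Acta2, got no subtype by the naming rule. Cluster 16 counts among all mesenchymal cells but in none of the classes here, so the contractile class may leave out old contractile cells. The share of all genes higher or lower was not counted for the contractile class. Its log2 differences were -0.68 for Cebpb (-0.80 to -0.55), -0.97 for Cebpd, -1.70 for Klf4, -2.47 for Ebf1 (-2.83 to -2.13) and -2.09 for Ebf2, and Klf5 had 167 and 2 UMIs. Pparg was higher there too, by 1.10 (0.14 to 1.96) on 56 and 14 UMIs, and Cebpa did not separate (-0.33, -1.27 to 0.49). In cluster 7, the only mesenchymal cluster shared by both ages (567 young and 382 old cells), Cebpb was higher by 0.43 (0.26 to 0.60), Klf4 by 0.74 (0.11 to 1.38) and Pparg by 1.49 (0.08 to 3.03) on 7 and 14 UMIs. Old cluster 7 cells also held more adipocyte-marker RNA, 28.6 CPM against 1.89 CPM in the young, whose part in the Pparg value was not tested.

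Cells outside the mesenchymal classes gave other differences. Mesothelial-like cells (416 young, 119 old) had Cebpb higher by 0.41 (0.32 to 0.49) and Cebpd higher by 1.97 (1.73 to 2.21), at 69.9 CPM in young and 274 CPM in old. Their Ebf1 level was 10.3 CPM in young and 58.3 CPM in old cells, while Klf5 did not separate (76 and 11 UMIs; log2 -0.62, -1.69 to 0.30). Schwann-like cells had Cebpb higher by 1.23 (0.95 to 1.51) and Cebpd by 1.46 (1.16 to 1.77). Klf4 and Klf5 did not separate there (-0.16, -0.72 to 0.38, and 0.29, -1.19 to 1.74). By the 1.5-fold limit, Cebpb was therefore higher in old fibroblastic, cycling and Schwann-like cells, under the limit in cluster 7 and mesothelial-like cells, and lower in the contractile class. Cebpd was higher in mesothelial-like and Schwann-like cells, under the limit in fibroblastic cells, cycling cells and cluster 7, and lower in the contractile class. The contractile class joins clusters 2 and 7 in young cells but is almost only cluster 7 in old cells, so its values compare unlike clusters.

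**Figure D3:**
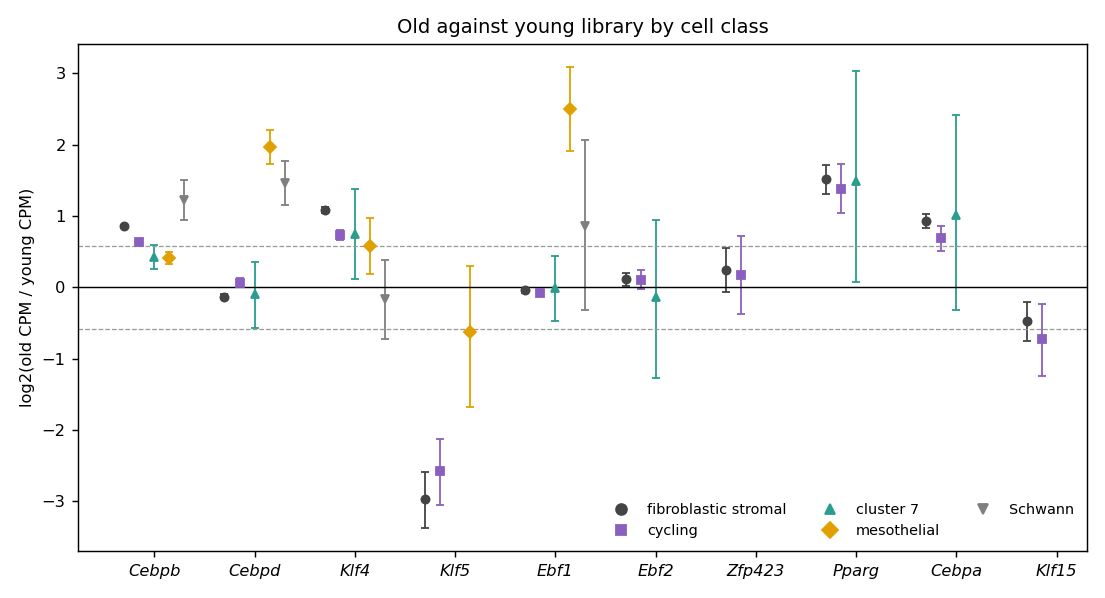
Log2 ratio of old to young CPM of each factor in 5 cell classes, with exact conditional Poisson 95% intervals; dashed lines mark 1.5-fold in either direction, and genes with under 20 UMIs over both libraries or none in 1 library are not drawn. Pparg lies above 0 in fibroblastic cells, cycling cells and cluster 7, Klf5 lies below -2 in fibroblastic and cycling cells, and Cebpd passes the upper dashed line in mesothelial-like and Schwann-like cells.

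Factors were also paired within single mesenchymal cells thinned to 3000 UMIs, setting the number of cells with a UMI of both genes against the product of their single shares. Over cells that share a library such ratios are descriptions of sparse counts. Pparg and Cebpa, the late pair, were found together in 73 old cells against 34.9 under independence, a ratio of 2.09 (1.64 to 2.63), and within old cluster 17 alone the ratio was 1.86 (1.36 to 2.49). Ebf1 and Cebpa met more often than independence gives in both libraries, 1.53 (1.38 to 1.70) in young and 1.27 (1.17 to 1.37) in old cells. Within young cluster 0 and old cluster 17, where both were high, those ratios were 1.10 and 1.15. Ebf1 and Ebf2 met at 1.42 (1.30 to 1.55) in young and 1.11 (1.01 to 1.21) in old cells. Cebpd and Klf4 met less often in old cells, at 0.853 (0.797 to 0.913). Pairs with Cebpb lay near 1, but Cebpb had a UMI in 54.3% of young and 74.0% of old cells already at 1000 UMIs. Its ratios had little room above 1, so no independence was read from them.

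**Figure D4:**
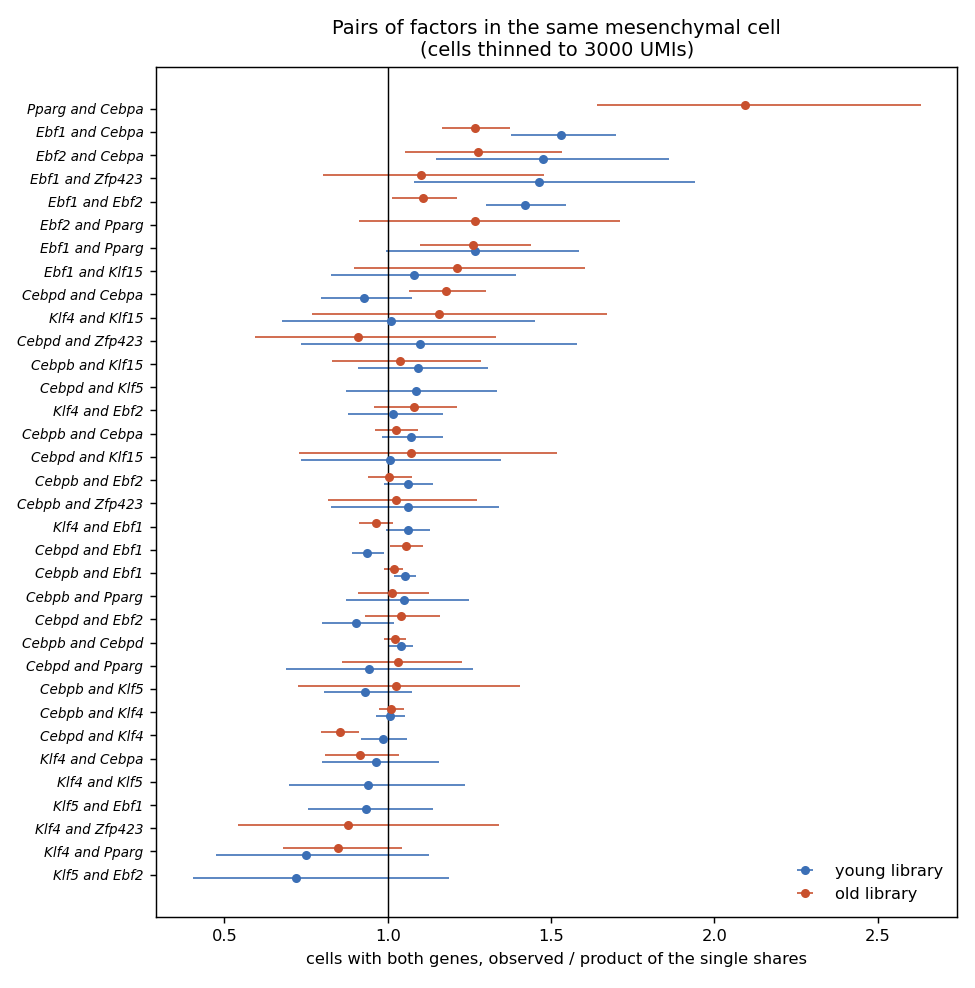
Cells with a UMI of both factors divided by the number expected from the single shares, in mesenchymal cells thinned to 3000 UMIs, for pairs with at least 20 expected cells; points are the ratio and lines its 95% counting interval, young in blue and old in orange. Pparg with Cebpa in the old library has the highest ratio, 2.09, and most pairs lie near the line at 1.

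Across 25 cluster sums (each cluster with at least 50 cells in a library), the factor closest to another in profile was Cebpa to Zfp423, with a Pearson correlation of 0.87 of log2 levels. Ebf1 correlated at 0.85 with Ebf2 and with Zfp423. Among all genes compared, the most alike were Tiparp for Cebpb (0.895), Smad6 for Cebpd (0.821), Rassf8 for Klf4 (0.883), Ilkap for Klf5 (0.849), Lpgat1 for Zfp423 (0.892), Tspan12 for Pparg (0.837), Lrp3 for Cebpa (0.911) and Ak3 for Klf15 (0.840). Over the 16 mesenchymal sums alone the order of these pairs differed. Ebf1 with Zfp423 was at 0.94, Ebf1 with Ebf2 at 0.93 and Cebpa with Zfp423 at 0.82. Zfp423 rests on few UMIs, with 1 young and 0 old in cluster 7. Clusters of 1 library share its chemistry and depth, so these correlations describe the 2 libraries.

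Other genes of the pathway were read in the same mesenchymal sums. Among targets of PPARγ and C/EBP, 11 of the 24 genes with at least 20 UMIs were higher in old cells and 0 were lower. Their median log2 difference was 0.42, against 0.13 for all genes. The complement factor gene Cfd was 41.1-fold higher, Adipoq 11.9-fold (24 and 293 UMIs) and the fatty acid transporter Cd36 10.3-fold (23 and 243 UMIs). The lipid-droplet gene Plin1 was higher by 0.75 (0.34 to 1.18), whereas the abundant lipid genes Fabp4 (-0.08) and Lpl (0.17) stayed under the limit. Many of these genes are adipocyte markers, whose summed level in mesenchymal cells is given above. Other adipogenic regulators and partners showed 5 of 27 higher and 3 lower (median 0.02), near the shares of all genes (19.8% and 12.4%), with Lpin1 higher by 1.46 and the immediate-early regulator Egr2 by 1.24.

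Among the paralogues of the factors, 3 of 16 were higher and 4 lower, beside 19.8% and 12.4% of all genes, and their median was 0.09 against 0.13. Klf2, a Krüppel-like factor that represses Pparg, was higher by 0.98, while Klf11 (-1.01) and Klf13 (-0.75) were lower and Ddit3, the dominant-negative C/EBP family member, was higher by 0.86. Genes listed as restraining adipogenesis gave 6 of 22 higher and 4 lower beside the same shares of all genes, and their median of 0.13 was that of all genes to 2 decimals. Sox9 (0.99) and Tgfb1 (0.98) were among the higher ones. The listed gene with the highest value was Rarres2 (2.98), whose product chemerin is known as an adipokine that promotes adipocyte differentiation, which the list's name does not describe, and F3, which encodes tissue factor, was lower (log2 -1.73). The list named inducers of the early factors gave 5 of 15 higher and 3 lower, beside 19.8% and 12.4% of all genes, and its median was 0.30. It also holds response genes such as Zbtb16, which its name does not describe. The cytokine gene Il6, whose protein acts through STAT3 on Cebpd and Cebpb, was at 28.8 CPM in young and 848 CPM in old cells (log2 4.88). The NF-κB genes Nfkbia and Nfkb1 were higher by 2.14 and 1.74, and Zbtb16, a glucocorticoid-induced zinc-finger gene, was lower (log2 -5.001, 280 and 9 UMIs). Among immediate-early genes Atf3 (2.72), Ier3 (2.59), Fosl1 (2.21) and Nr4a1 (1.97) had the highest values of those with at least 100 UMIs.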

How the data were processed

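The deposited values are raw UMI counts per gene and cell that the authors made with Cell Ranger (version 3.0.1 per the file headers, build mm10 per the submitters' processing notes), with a 3′ v2 kit per the labels' protocols. From these counts, barcodes under 500 genes or over 10% mitochondrial UMIs were dropped. Scrublet's automatic threshold marked 0 young and 5 old barcodes, so the highest-scoring 1302 young and 1504 old cells (0.8% for each 1000 cells) were removed. The 2000 most variable genes per library, without the 10 factors, gave 30 components, 15 neighbours and Leiden clusters at resolution 1 (scanpy 1.11.5). Clusters were named from marker lists; the thresholds for naming were set after the clusters were seen. Counts were summed per library and class, and a difference is log2 of the CPM ratio with an exact conditional Poisson interval. A count of 0 was set to 3 UMIs. Shares have exact Clopper-Pearson intervals. The interval method was tested on simulated data. The 10 factors, pathway lists and markers were chosen with earlier results of these data known. All 10 factors are named; other lists name up to 4 genes with the largest change and at least 100 UMIs in mesenchymal cells, plus Adipoq, Plin1, Fabp4 and Lpl. Alternatives changed scaling, filters, doublets, clustering, thinning and limits. 6 of the 10 factors overlap another annotated gene. The genes most like Ebf1 and Ebf2 in profile are not reported here.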

Additional observations from a re-analysis of the deposited data

Results flagged for a closer look

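Cebpd and Ebf1 differed between libraries by unlike amounts in different cell classes, with intervals that do not meet, and the differences between classes were not tested with replicates. The log2(old/young) of Cebpd was 1.97 in mesothelial-like cells and 1.46 in Schwann-like cells against -0.13 in fibroblastic cells. For Ebf1 it was 2.4996 in mesothelial-like cells against -0.04 in fibroblastic and -0.07 in cycling cells, resting on 46 young and 58 old UMIs.

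An old cluster that no marker list named (cluster 14, 150 old cells, median 2438.5 UMIs, led by Spry2, Lgals3 and Notch2) had Klf5 at 66.8 CPM (46.6 to 92.96), above the highest upper bound in any named cluster, 30.9 CPM. Its 35 Klf5 UMIs came from 10 of 150 cells.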

How the results depend on the processing

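The calls of Cebpb, Klf4, Pparg and Cebpa as higher and of Klf5 as lower held under median-of-ratios scaling, no doublet removal, a looser cell filter, each library clustered on its own, Leiden resolutions 0.5 and 2, the factors kept among the clustering genes, and only cells without adipocyte UMIs. Median-of-ratios scaling moved the median log2 difference of the factors from 0.12 to -0.0058 and gave 2 lower factors in place of 1, with Klf15 at -0.65. With no UMI minimum, 4843 genes were higher and 3963 lower. At a 2-fold limit, 1 factor was higher (Pparg), with 1481 genes higher and 1009 lower, and 22 other list genes higher and 4 lower in place of 39 and 14. In a check chosen after seeing the data, each cluster was left out in turn, and 2 factors were lower without cluster 1, 2, 4 or 17. The report gives the calls of Klf4, Cebpa, Zfp423 and Klf15 that changed; the cause was not tested. Factors with a higher share of cells numbered 5 at 1000 UMIs, 5 at 3000 and 6 unthinned, with no such count over all genes. No paired analysis was possible because each age has 1 library. Depth limits Klf5, Zfp423, Pparg and Klf15 most, at 153 to 1269 UMIs in the old mesenchymal cells.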
